A study of Homo sapiens with 24 samples.

Results

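The genes described here are the protein coding ZNF genes of human chromosome 19, meaning the genes annotated as protein coding in GENCODE whose symbol is ZNF followed by a number and, in some cases, letters. The rule found 246 genes, and all 246 were present among the 61533 genes of the deposited exon count table. In 209 of the 246, the protein translated from the canonical transcript held a match to a pattern of conserved residues of the KRAB A box. The other 37, among them ZNF581, ZNF121 and ZNF146, held none, so the group is named here by its symbols and its chromosome rather than as KRAB genes throughout. The median member encoded 12 C2H2 zinc fingers, with a range from 1 to 36, and 580.5 residues on 4 exons.

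KRAB zinc finger proteins are DNA-binding repressors. Their arrays of C2H2 fingers recognise DNA, often within transposable elements, and the KRAB domain recruits TRIM28, which brings in the histone methyltransferase SETDB1, HP1 proteins and the NuRD deacetylase complex to form silent chromatin. The genes arose by repeated tandem duplication, and human chromosome 19 carries the largest share of them, in long arrays of related neighbours.

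The libraries were 4sU-seq libraries of U2OS cells, a human osteosarcoma line, in which 200 µM 4-thiouridine labelled the RNA made in the last hour before harvest. There were 3 stable lines, each expressing the glucocorticoid receptor (GR) with a HaloTag. The wt line carried the wt receptor. SoF carried K492A, which the paper gives as lowering RNA affinity strongly and DNA affinity less. Ctrl carried R470A, a control mutation given as lowering DNA affinity while keeping RNA affinity. These affinities were measured in vitro, and the paper did not test loss of RNA binding by the mutant in cells. Every construct was integrated by PiggyBac transposition under a CMV promoter, selected with puromycin and sorted by FACS, so each line was 1 sorted pool, and the effect of a construct and of its pool cannot be told apart. Each line was harvested after 0.01% ethanol (0 h) or after treatment with dexamethasone, a synthetic GR agonist, at 100 nM for 1, 2 or 3 h, with 2 libraries in each of the 12 groups and 24 in all. The medium was replaced at treatment, and no ethanol libraries were matched to 1, 2 or 3 h. In every change over time, dexamethasone and time since the medium change therefore cannot be told apart. The comparisons ask how newly made RNA of the ZNF genes changed over the time course in each line, whether the lines differed, and how the changes lay along the chromosome.

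Library totals ran from 8106036 to 15820806 counts, and the members took 0.515% to 0.678% of them, with a wt median of 0.543%, a SoF median of 0.636% and a Ctrl median of 0.598%. The osteoblast-lineage markers RUNX2, COL1A1 and SPARC were at 51.4 CPM (a gene's counts scaled to its library's total after TMM correction) or more in every library, whereas COL1A2, SP7 and IBSP stayed at or below 0.60 CPM and CD3E and KRT19 at or below 0.101 CPM. The epithelial marker EPCAM was at 1.05 to 3.59 CPM and the leukocyte marker PTPRC at 0.270 to 2.17 CPM, and their part in the results was not tested. Counts on the receptor gene itself, NR3C1, averaged 769 CPM in wt, 2848 CPM in SoF and 3495 CPM in Ctrl, which cannot be told apart from the line in any difference between lines. These exon counts do not separate the native gene from the construct, and they are RNA, not protein. The paper reports picking sorted fractions so that nuclear GR protein, by immunofluorescence, matched between the lines after dexamethasone. Replicates of 1 group disagreed in some groups across the whole family: the median of replicate 1 minus replicate 2 over the 215 members tested was -0.23 on the log2 scale in wt at 1 h and 0.21 in Ctrl at 1 h, against -0.02 to 0.02 over all genes in the 12 groups. Exons of 90 members overlapped an exon of another gene on the same strand and those of 83 a gene on the opposite strand, so reads of such pairs may be shared.

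Promoter sequences are shown for 5 members on which the results turn, chosen after their values were seen. ZNF792 and ZNF584 rose in all 3 lines, ZNF850 and ZNF93 fell in all 3, and ZNF154 was made in 1 line only at more than trace level. Each runs from 250 bases before to 50 bases after a RefSeq transcription start on GRCh38.p14, 5′ to 3′ on the gene's own strand, and capitals mark CG dinucleotides. ZNF792 is given from chr19:34964180-34964479 on the minus strand with 24 CG dinucleotides, ZNF584 from chr19:58408399-58408698 on the plus strand with 34, ZNF850 from chr19:36772758-36773057 on the minus strand with 23, ZNF93 from chr19:19900696-19900995 on the plus strand with 10, and ZNF154 from chr19:57709155-57709454 on the minus strand with 14. ZNF480 and ZNF114, described further on, are named only.
ZNF792: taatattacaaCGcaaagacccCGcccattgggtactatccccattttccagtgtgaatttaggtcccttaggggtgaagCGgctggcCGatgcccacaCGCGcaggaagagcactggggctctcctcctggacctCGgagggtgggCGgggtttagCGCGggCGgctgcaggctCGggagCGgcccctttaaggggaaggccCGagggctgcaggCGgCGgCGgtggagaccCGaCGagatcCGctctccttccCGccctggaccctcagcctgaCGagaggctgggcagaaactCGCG
ZNF584: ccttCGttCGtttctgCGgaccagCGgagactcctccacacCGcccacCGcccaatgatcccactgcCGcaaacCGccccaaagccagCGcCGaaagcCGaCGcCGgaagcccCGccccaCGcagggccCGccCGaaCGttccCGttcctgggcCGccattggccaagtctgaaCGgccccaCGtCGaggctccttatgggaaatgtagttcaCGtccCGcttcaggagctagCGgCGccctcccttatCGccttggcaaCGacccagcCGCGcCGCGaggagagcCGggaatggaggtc
ZNF850: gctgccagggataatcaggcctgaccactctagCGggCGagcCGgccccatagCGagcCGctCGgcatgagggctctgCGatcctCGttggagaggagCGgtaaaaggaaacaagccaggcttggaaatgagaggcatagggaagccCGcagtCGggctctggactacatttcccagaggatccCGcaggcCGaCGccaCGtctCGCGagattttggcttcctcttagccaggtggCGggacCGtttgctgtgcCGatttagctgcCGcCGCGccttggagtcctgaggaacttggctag
ZNF93: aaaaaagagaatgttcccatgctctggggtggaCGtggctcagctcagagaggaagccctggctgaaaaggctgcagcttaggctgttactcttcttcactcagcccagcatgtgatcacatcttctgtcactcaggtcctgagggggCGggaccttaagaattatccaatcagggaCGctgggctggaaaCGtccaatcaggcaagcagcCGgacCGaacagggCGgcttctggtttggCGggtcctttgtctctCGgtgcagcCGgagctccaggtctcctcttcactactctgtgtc
ZNF154: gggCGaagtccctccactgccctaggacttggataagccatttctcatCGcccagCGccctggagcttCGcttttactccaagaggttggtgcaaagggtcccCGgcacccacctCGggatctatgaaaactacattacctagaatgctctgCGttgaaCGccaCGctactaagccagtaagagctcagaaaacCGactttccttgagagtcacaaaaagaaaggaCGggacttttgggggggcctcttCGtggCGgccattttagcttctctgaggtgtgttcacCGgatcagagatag

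The promoters of the family were rich in CG. RefSeq held 268 start sites of 216 members, and their 300-base windows had a median of 20 CG dinucleotides, against 14 over all 35116 windows of 27305 genes. The 48 windows of the 37 members with windows that rose at 3 h had a median of 22.5, and the 34 windows of the 28 that fell had 16.5. Motifs were searched on both strands. The ETS-type motif CCGGAAGT was present in 17.9% of member windows, in 4.14% of all windows and in 4.43% of the 1649 windows of other protein coding genes of chromosome 19. The CCAAT box was in 50%, 34.6% and 35.0% of the same sets, and the GC box GGGCGG in 64.9%, 45.0% and 61.2%. TATAAA was in 2.61% of member windows, 11.5% of all and 7.34% of those of other chromosome 19 genes. The full palindromic glucocorticoid response element, an inverted repeat of AGAACA around a spacer of 3 bases, was in 0 of 268 member windows and in 1 of all 35116. The shorter AGAACA, which also matches within the palindrome, was in 9.70% of member windows, 14.8% of all and 10.2% of those of other chromosome 19 genes, in 3 of the 48 windows of rising members and in 4 of the 34 of falling members. A motif match is a description of letters in this window and nothing more.

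Most members were made at modest rates in U2OS, and 1 array held most of those too low to test. The median member had 16.8 CPM averaged over the 24 libraries, and 215 of the 246 had enough counts to be tested over time. Of the 31 that did not, 19 lay in the array at 19.67 to 24.13 Mb, in which only 18 of 37 members were tested. None of the 31 was at 0 in every library: ZNF728 had 1 count in total and ZNF382, reported to be silenced in several cancers, had 125. Per kb of exon, the highest mean levels were those of ZNF121 with 31.3 CPM per kb, ZNF146 with 27.3, ZNF460 with 20.6, ZNF574 with 20.1 and ZNF317 with 19.7. Their libraries overlap widely, since ZNF146 ranged from 86.1 to 145 CPM and ZNF317 from 73.7 to 121 CPM, so the order of neighbours among these 5 is not firm.

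Newly made RNA of the family changed in both directions after dexamethasone, and mostly after the first hour. Averaged over the 3 lines, 1 member was called at 1 h, 63 at 2 h and 73 at 3 h of the 215 tested, where called means an adjusted p under 0.05 by the quasi-likelihood F test of edgeR, after Benjamini-Hochberg correction across the 23651 genes tested. These are 0.465%, 29.3% and 34.0% of the members, and over all genes tested the shares were 1.28%, 28.8% and 40.3%. At 3 h, 41 members rose and 32 fell, or 19.1% and 14.9%, against 20.9% rising and 19.3% falling over all genes. The median log2 change of the members was -0.05 and that of all genes -0.03. The members' share of called genes lay below that of all genes at 1 h and 3 h and near it at 2 h.

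The 0 h libraries are shared by all of these counts, and the counts moved with them. Without the 3 replicate 1 libraries at 0 h, 0, 80 and 81 members were called at 1, 2 and 3 h, and without the 3 replicate 2 libraries 25, 30 and 54. Over all genes the same settings called 129, 9850 and 11122 genes, and 5348, 3305 and 6814. Libraries at 0 h with the same replicate number deviated together across lines, with a correlation over genes of 0.39 to 0.57, whereas the fit treats the 6 as separate. A comparison that uses no 0 h library, 3 h against 1 h, called 105 members, 52 rising and 53 falling, which is 48.8% against 50.6% of all genes, with 25% rising and 25.6% falling. Of the 73 members called at 3 h against 0 h, 69 were also called against 1 h in the same direction and 4 were not, with the 3 h libraries shared between both. The single call at 1 h was ZNF699, with a log2 change of 0.41 (SE 0.10, adjusted p = 0.034), and it was not called without the 3 replicate 1 libraries at 0 h. Leaving out 1 library lost the call in 8 of 12 cases, namely either wt 0 h library, wt 1 h replicate 2, SoF 0 h replicate 2, either SoF 1 h library, Ctrl 0 h replicate 1 or Ctrl 1 h replicate 1. ZNF699 went from 90.1 and 86.8 CPM at 0 h to 119 and 167 CPM at 1 h in wt, from 117 and 98.1 to 142 and 124 in SoF and from 135 and 148 to 193 and 141 in Ctrl, so that its groups overlapped in Ctrl and not in wt or SoF.

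**Figure D1:**
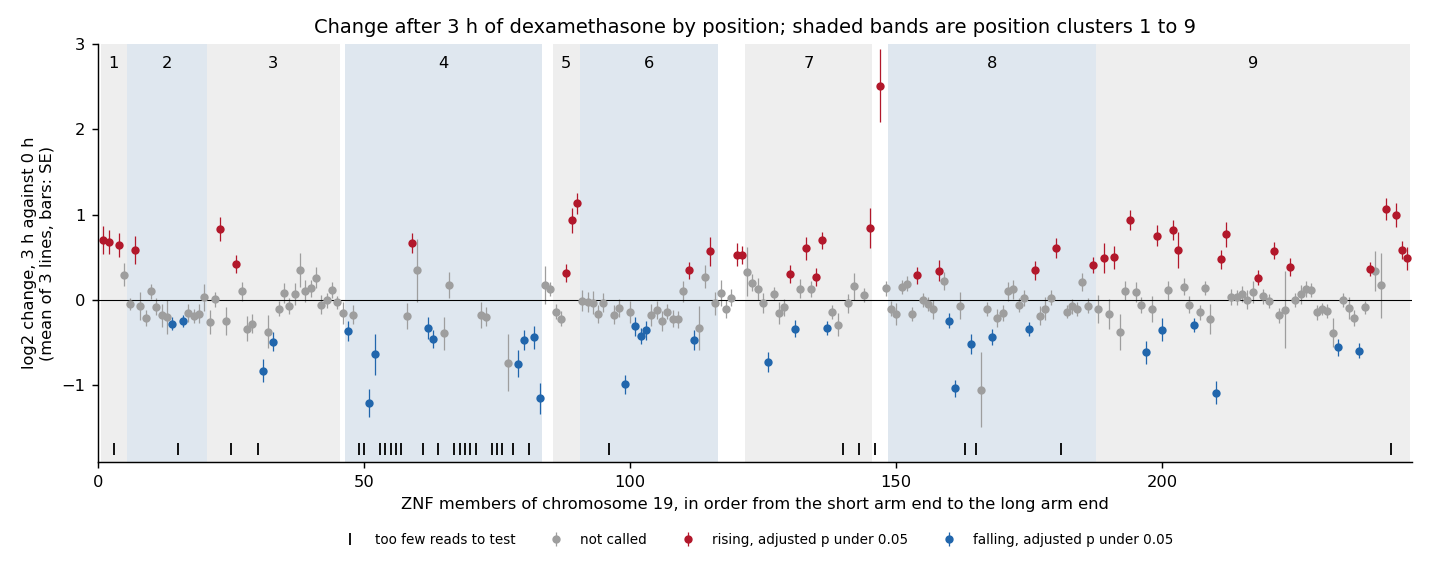
Log2 change of each tested member after 3 h of dexamethasone against 0 h (mean of 3 lines, bars are SE, y axis) in order along chromosome 19 (x axis), with the 9 numbered position clusters shaded and 31 untested members as ticks. In the long run of ticks in cluster 4 the tested members are mostly below 0. At the right end, in cluster 9, 16 rising members stand against 6 falling ones of 58 tested.

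By line, the same timing held. In wt, 0, 11 and 30 members were called at 1, 2 and 3 h, where all genes gave 0.156%, 4.6% and 10.7% and the members 0%, 5.12% and 14%. In SoF the counts were 0, 6 and 30, or 0%, 2.79% and 14%, against 0.165%, 5.68% and 19.3% of all genes. In Ctrl they were 0, 13 and 22, or 0%, 6.05% and 10.2%, against 0.0465%, 7.95% and 14.2%. At 3 h, 20 members rose and 10 fell in wt, where 6.6% of all genes rose and 4.12% fell. The numbers were 18 and 12 for SoF, beside 11.2% and 8.11% of all genes, and 9 and 13 for Ctrl, beside 8.58% and 5.6%. For the 0 counts at 1 h, edgeR gave an unadjusted p under 0.05 for 23 members in wt, 6 in SoF and 1 in Ctrl, and DESeq2 called 1, 0 and 0. The share of all genes under that unadjusted cut is not given here, so the unadjusted counts are not read as a response of the members.

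With 2 libraries a group, these counts rest on single libraries. Leaving out any 1 of the 4 wt libraries left 13 to 16 members at 3 h, and without wt 3 h replicate 2 they were 14 rising and 1 falling. In SoF, the count at 3 h was 11 without 0 h replicate 2, 13 without 3 h replicate 1 and 15 without 3 h replicate 2. In Ctrl, it was 7 without 0 h replicate 2, 11 without 3 h replicate 1 and 8 without 3 h replicate 2. The 2 h counts fell to 0 without wt 0 h replicate 2 or wt 2 h replicate 2, to 0 without SoF 0 h replicate 2 or SoF 2 h replicate 1 and to 3 without SoF 2 h replicate 2, and to 2 without Ctrl 0 h replicate 2 or Ctrl 2 h replicate 2 and 7 without Ctrl 2 h replicate 1. Without 0 h replicate 1 they were 10 in SoF and 21 in Ctrl. The balance at 3 h in Ctrl turned to 15 rising and 11 falling without 0 h replicate 1.

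At 3 h, 43 of the 215 members were called in at least 1 line, 18 of them in exactly 1 line, 11 in exactly 2 and 14 in all 3, and none was called in opposite directions in different lines. These are 20%, 8.37%, 5.12% and 6.51% of the members, and over all genes tested the shares were 24.7%, 11.8%, 6.42% and 6.51%. Rising in all 3 lines were 4.20% of all genes and falling 2.31%, beside 3.26% of the members in each direction. The 7 that rose in all 3 lines were ZNF792, ZNF234, ZNF581, ZNF667, ZNF71, ZNF584 and ZNF324B. The 7 that fell in all 3 were ZNF93, ZNF254, ZNF850, ZNF404, ZNF480, ZNF548 and ZNF274. Taking the lines together, all 6 libraries at 3 h lay above all 6 at 0 h for 25 members and below them for 18, which is 11.6% and 8.37% of those tested, against 9.89% and 6.74% of all genes tested.

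Among the rising members, ZNF792, a KRAB gene with 12 fingers at chr19:34956354-34964229 on the minus strand, changed most clearly. In wt it went from 38.7 and 24.3 CPM at 0 h to 64.6 and 64.7 CPM at 3 h, in SoF from 22.1 and 19.4 to 46.2 and 53.6, and in Ctrl from 29.2 and 23.4 to 57.1 and 56.3. All 6 libraries at 3 h were above all 6 at 0 h, and those at 2 h, between 39.5 and 50.7 CPM, were as well. The log2 change was 1.13 at 3 h (SE 0.12, adjusted p = 2.5e-07) and 0.78 at 2 h (SE 0.12, adjusted p = 5.8e-05). At 1 h it was -0.12 (SE 0.13, adjusted p = 0.67).

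ZNF584, at chr19:58401504-58431736 near the long arm end, followed the same course at a lower level. Its 6 libraries ran from 4.84 through a median of 5.74 to 7.65 CPM at 0 h and from 10.9 through 12.3 to 14.2 CPM at 3 h, without overlap, for a log2 change of 1.07 (SE 0.13, adjusted p = 1.1e-06). ZNF324B, close by at chr19:58451611-58457833, ran from 3.38 to 5.80 CPM at 0 h and from 7.37 to 11.4 CPM at 3 h, a log2 change of 1.00 (SE 0.14, adjusted p = 4.8e-06). ZNF581, which encodes 4 fingers and no KRAB pattern and shares exon bases with ZNF580 and CCDC106, had medians of 13.6 and 25.9 CPM and a change of 0.94 (SE 0.12). For each of these 3 genes the 0 h and 3 h libraries did not overlap.

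Further rises in the same comparison were those of ZNF30 with 0.94 (SE 0.15), ZNF823 with 0.83 (SE 0.14), ZNF71 with 0.82 (SE 0.12), ZNF667 with 0.75 (SE 0.13) and ZNF234 with 0.70 (SE 0.10), all with an adjusted p of 5.2e-05 or less. The timing differed in size within this group. ZNF823 had a log2 change of 0.29 at 2 h (adjusted p = 0.13), whereas ZNF667 was already at 0.76 (adjusted p = 9.1e-05). Over the 41 rising members the median change was 0.58, and 3 members rose by more than 1 on the log2 scale.

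**Figure D2:**
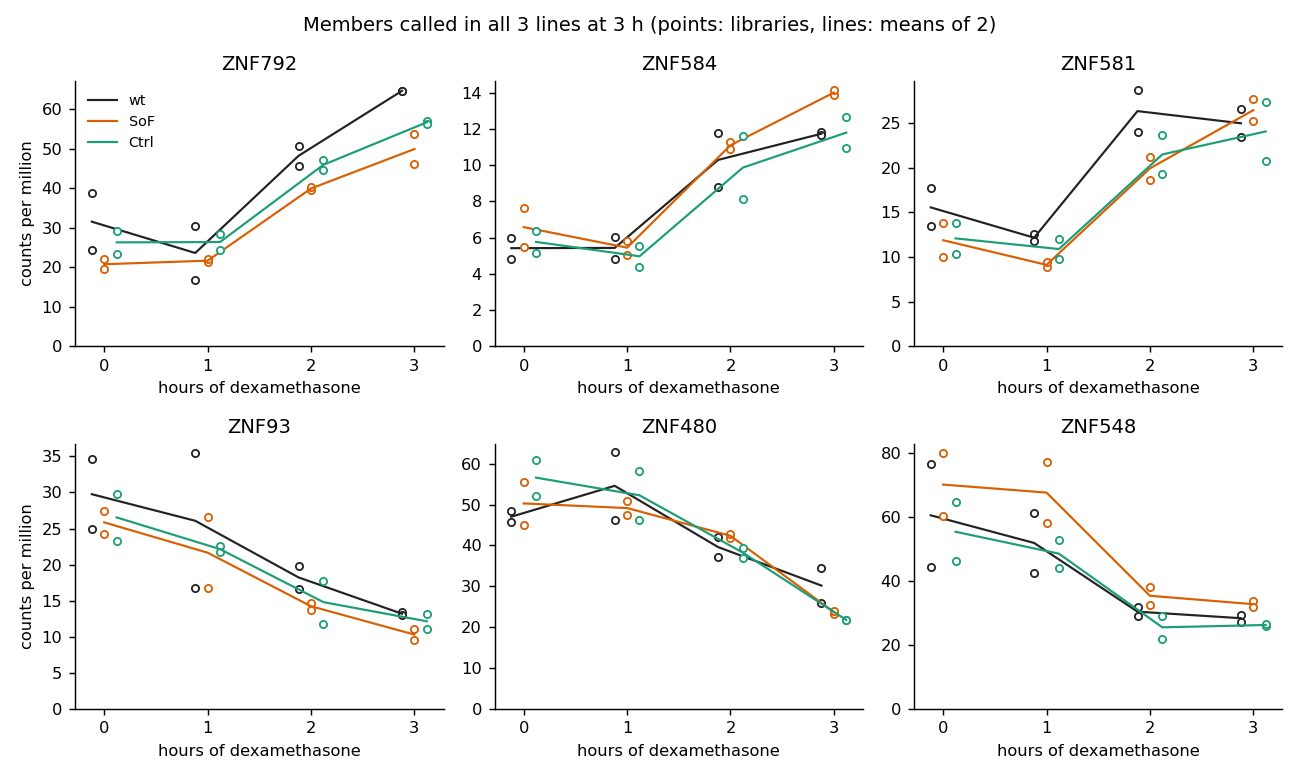
CPM (y axis, from 0) against hours of dexamethasone (x axis) for 6 members called in all 3 lines at 3 h, with 1 point per library and lines through the means of 2. ZNF792, ZNF584 and ZNF581 climb between 1 h and 2 h in every line, and ZNF93, ZNF480 and ZNF548 decline, ZNF480 mainly between 2 h and 3 h.

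Among the falling members, ZNF480, a KRAB gene with 10 fingers, had the smallest p. In wt it went from 45.7 and 48.3 CPM at 0 h to 34.4 and 25.9 CPM at 3 h, in SoF from 44.9 and 55.6 to 23.3 and 24, and in Ctrl from 52.2 and 61.0 to 21.8 and 21.8. No library at 3 h reached any at 0 h, and the log2 change was -1.03 (SE 0.10, adjusted p = 3.8e-08). At 2 h it was -0.35 (SE 0.10, adjusted p = 0.0090).

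ZNF93, which binds and represses LINE-1 retrotransposons, ran from 23.2 through a median of 26.2 to 34.6 CPM at 0 h and from 9.51 through 12 to 13.4 CPM at 3 h. The groups did not overlap, and the log2 change of -1.21 (SE 0.16, adjusted p = 3.6e-06) was the largest fall among the members called. ZNF850, an abundant member with 29 fingers, ran from 126 through 139 to 170 CPM at 0 h and from 60.8 through 72.8 to 80.7 CPM at 3 h, for a change of -0.99 (SE 0.11, adjusted p = 3.5e-07). ZNF548 ran from 44.3 to 80.0 CPM at 0 h and from 26.0 to 33.7 CPM at 3 h, also without overlap, with a change of -1.09 (SE 0.14). At 2 h the change was already -1.03 (SE 0.14).

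ZNF274, whose protein recruits SETDB1 to the 3′ ends of zinc finger genes, ran from 68.4 to 88.3 CPM at 0 h and from 43.2 to 57.1 CPM at 3 h, with a change of -0.60 (SE 0.09, adjusted p = 1.5e-05). In ZNF254 and ZNF404 the groups overlapped. ZNF254 had a change of -1.15 (SE 0.18), with 5.04 to 15.3 CPM at 0 h and 3.98 to 5.16 CPM at 3 h, and ZNF404 had -0.73 (SE 0.12), with 29.9 to 48.8 and 13.7 to 33.3 CPM. ZNF433 had -0.83 (SE 0.14) without overlap, and its 2.80 to 3.48 CPM at 2 h were already as low as its 2.90 to 4.29 CPM at 3 h. Over the 32 falling members the median change was -0.46. A KRAB pattern was present in 31 of the 32, in 33 of the 41 rising members and in 181 of all 215 tested.

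Of 10 members listed for a known role, 4 were called at 3 h, 5 were not and 1 was not tested, where 40.3% of all genes were called. ZNF93 and ZNF274 fell as given above. ZNF91, which represses SVA retrotransposons, ran from 21.1 to 44.8 CPM at 0 h and from 17.2 to 20.9 CPM at 3 h, without overlap, for a change of -0.75 (SE 0.16, adjusted p = 0.00072). That call was lost without the 3 replicate 2 libraries at 0 h, when the adjusted p was 0.083. ZNF331, an imprinted gene, rose by 0.41 on the log2 scale (SE 0.09, adjusted p = 0.0012).

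The 5 others were not called. ZNF473, a component of histone pre-mRNA processing, had a log2 change of 0.14 (adjusted p = 0.22), ZNF224 0.13, ZNF146 -0.02, ZNF432 -0.05 and ZNF175, a repressor of HIV transcription, -0.10, with SE of 0.08 to 0.11. ZNF382 was not tested, with 0.0697 to 0.705 CPM in the 24 libraries.

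The balance of rising and falling members differed between arrays, and 1 long array held the most falling members. Sorting members by start and opening a new cluster at every gap of more than 1 Mb gave 9 clusters of 5 or more members and 11 members outside them. In cluster 4, the pericentromeric array from 19.67 to 24.13 Mb, 9 of the 18 tested members fell at 3 h and 1 rose, with a median log2 change of -0.38. Over all genes tested, 19.3% fell and 20.9% rose. The falling 9 were ZNF101, ZNF93, ZNF682, ZNF708, ZNF738, ZNF91, ZNF675, ZNF726 and ZNF254, and the 1 that rose was ZNF430, by 0.67 (SE 0.12). Its median was below 0 at 3 h in each line, with -0.24 in wt, -0.33 in SoF and -0.46 in Ctrl.

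**Figure D3:**
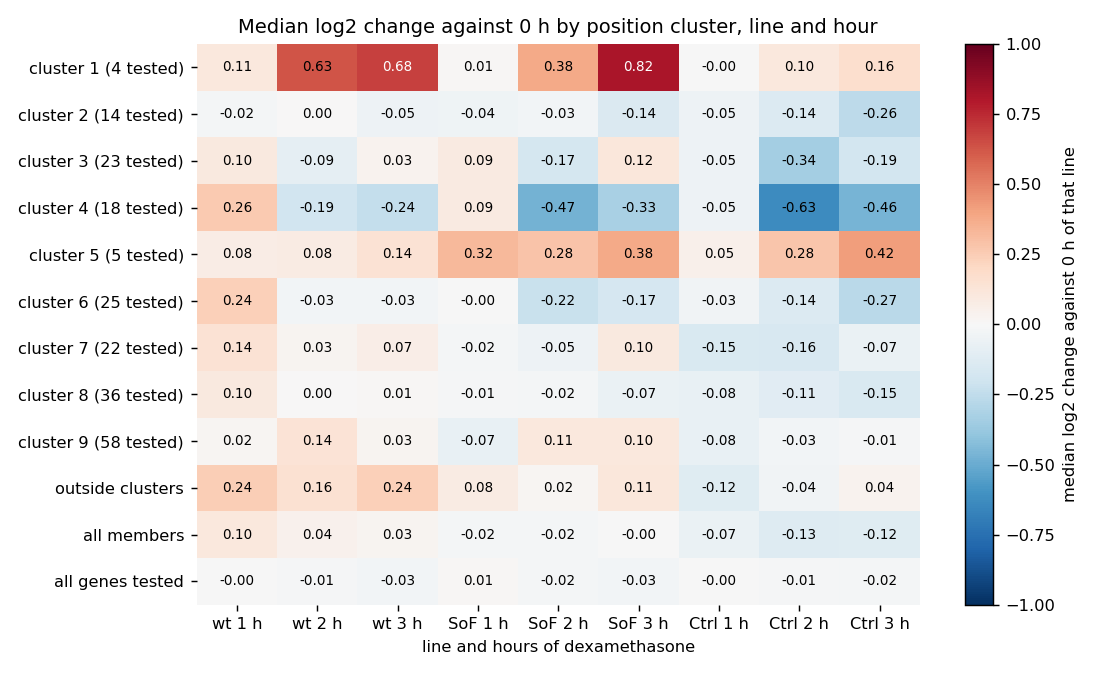
Median log2 change of the tested members of each position cluster (rows, with the number tested) against 0 h of the same line at 1, 2 and 3 h (columns, by line), with the colour scale from -1 to 1. Cluster 4 is negative at 2 and 3 h in all 3 lines, from -0.19 to -0.63, and cluster 1 is positive at 3 h in all 3.

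More members rose than fell in the small clusters 1 and 5 and in the large cluster 9. In cluster 1, at 2.82 to 2.94 Mb on the short arm, ZNF554 rose by 0.70, ZNF555 by 0.68 and ZNF57 by 0.65 on the log2 scale, ZNF77 had 0.30 (adjusted p = 0.085), and the median was 0.66. In cluster 5, at 34.68 to 34.96 Mb, the 3 members nearest its distal end, ZNF599, ZNF30 and ZNF792, rose by 0.31, 0.94 and 1.13, while ZNF302 and ZNF181 at the other end had -0.14 and -0.22 and were not called. Cluster 9, from 55.48 to 58.48 Mb, held the most called members and also the most tested, 58. Of these, 16 rose and 6 fell, with a median of 0.04, where 20.9% of all genes rose and 19.3% fell. The last 4 called members of cluster 9, ZNF584, ZNF324B, ZNF324 and ZNF446, all rose, by 1.07, 1.00, 0.59 and 0.49.

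In the other clusters the directions were mixed, in a comparison where 20.9% of all genes rose and 19.3% fell. At 3 h, 1 member rose and 2 fell of 14 tested in cluster 2, 2 and 2 of 23 in cluster 3, 2 and 5 of 25 in cluster 6, 5 and 3 of 22 in cluster 7, and 5 and 5 of 36 in cluster 8, while 3 rose and 0 fell of the 10 outside clusters. Over 18 other settings, including each library left out, cluster 4 had 5 to 10 falling members and a median from -0.47 to -0.26, and cluster 1 had 3 rising members. The 5 falling members of cluster 4 came without Ctrl 3 h replicate 2 alone, and also without the 3 replicate 2 libraries at 0 h, which gave 11 rising members in cluster 9.

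Adjacent members were compared as pairs. Over 196 pairs of adjacent tested members within a cluster, the log2 changes at 3 h had a Pearson correlation of 0.37 (Spearman 0.37), and 128 pairs had the same sign. Over the 174 pairs with no overlapping exons the correlation was 0.36. The pairs share all 24 libraries and much of their sequence composition, and no test was applied.

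Transcript composition moved with the change as well. Across the 215 members, the log2 change at 3 h correlated with the GC content of the canonical transcript with a Pearson r of 0.34 (Spearman 0.34), and across all 23580 tested genes with a GC value with r of 0.28. Members were put in 4 groups of near equal size by GC. In the lowest, from 33.2% to 39.9%, 4 rose and 13 fell, with a median of -0.12. In the highest, from 45.7% to 70.9%, 20 rose and 3 fell, with a median of 0.14. Other protein coding genes in the same GC ranges had medians of -0.12 and 0.19, with 11.3% rising and 30.3% falling in the lowest and 38.0% and 11.3% in the highest.

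**Figure D4:**
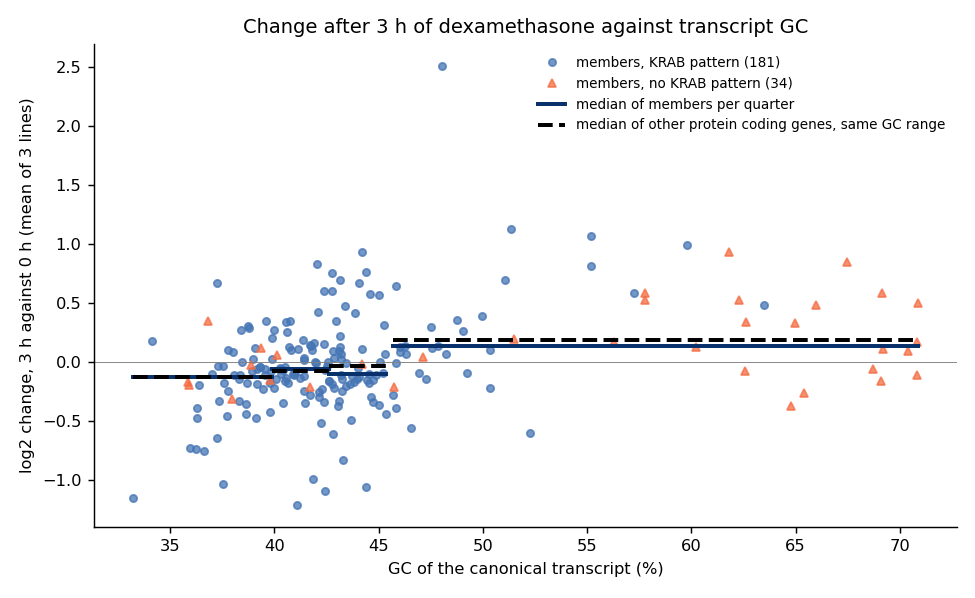
Log2 change after 3 h against 0 h (mean of 3 lines, y axis) against GC content of the canonical transcript (x axis) for the 215 tested members, with circles for the 181 with a KRAB pattern and triangles for the 34 without. Solid bars give the members' median in each of the 4 GC groups, from -0.12 to 0.14, and dashed bars the median of other protein coding genes in the same GC range, from -0.12 to 0.19.

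Cluster 4 had the lowest GC of the 9 clusters, with a median of 36.8% over all 37 members, tested or not. Within its GC range, 137 other tested members had a median change of -0.07, with 18 rising and 19 falling. The cluster's own was -0.38, with 1 rising and 9 falling. The 137 ran from 35.9% to 44.9% GC and the cluster's 18 from 33.2% to 45.0%. GC was not matched within that range, so this comparison cannot separate position from GC. GC also moved with differences between replicates: replicate 1 minus replicate 2 at 0 h correlated with GC across the members with r of 0.50 for wt, 0.51 for SoF and 0.48 for Ctrl. The part of GC-dependent library differences in the changes over time was not tested. The correlation of the change with GC was 0.52 for 3 h against 1 h, which uses no 0 h library, though replicates at 1 h and 3 h also differed along GC, with r between -0.40 and 0.29.

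Members with and without the KRAB pattern were counted apart. With the pattern, 33 of 181 tested rose and 31 fell at 3 h, with a median of -0.07, and without it 8 of 34 rose and 1 fell, with a median of 0.10. Their GC content differed too, with medians of 41.9% and 60.2% over all 209 and 37. Gene length moved with the change, with r of -0.31 against the log10 span of the gene among members and 0.08 among all genes. The number of fingers showed r of -0.12.

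The members can be set beside other genes. Of 863 tested other protein coding genes of chromosome 19, 293 rose and 73 fell at 3 h, with a median of 0.19, and of 244 tested ZNF genes on other chromosomes 78 rose and 45 fell, with a median of 0.06. The median transcript GC was 60.0% in the former and 44.6% in the latter, beside 42.3% in the members. A test of the difference between these sets was not run.

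Among 31 listed genes of KRAB repression and of chromatin silencing more broadly, 11 rose and 2 fell at 3 h, or 35.5% and 6.45%. Of all genes, 20.9% rose and 19.3% fell. All 31 are protein coding, whereas all genes include noncoding ones. Protein coding genes outside the family gave 38.0% rising and 11.3% falling in the highest GC range above, and 11.3% and 30.3% in the lowest. The GC of the 31 was not taken into account. The histone methyltransferase gene EHMT2 rose by 1.16 on the log2 scale (SE 0.11, adjusted p = 2.8e-08), and the NuRD genes MTA1, GATAD2A, CHD4, GATAD2B, MBD3 and HDAC1 by 0.69, 0.62, 0.46, 0.39, 0.35 and 0.27, as did MORC2, UHRF1, DAXX and EHMT1 by 0.27, 0.40, 0.41 and 0.21. ATF7IP, a partner of SETDB1, fell by 0.62 (SE 0.11, adjusted p = 0.00012), and RBBP7, also of NuRD, fell by 0.27. The NuRD genes RBBP4, CHD3, HDAC2 and MTA2 had -0.13, -0.05, 0.16 and 0.24 and were not called. TRIM28 itself had 0.26 (adjusted p = 0.080) and SETDB1 0.17, and neither was called. The HP1 genes CBX1, CBX3 and CBX5 had 0.03, 0.08 and -0.10 and were not called either. Of 13 tested zinc finger genes of the chromosome under other names, ZBTB7A rose by 0.87 (SE 0.12), while ZFP14, ZFP82 and ZSCAN5A fell by 1.11, 0.59 and 0.40.

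The 3 h response of the members was not shown to differ between lines. The interaction test in edgeR called 0 of 215 members for SoF against wt, Ctrl against wt and SoF against Ctrl, where all genes gave 0%, 0% and 0.0127%. At an unadjusted p under 0.05 there were 0, 7 and 4 members, and DESeq2 called 0 in each. Without the share of all genes under that cut, the unadjusted counts are not read as a difference between lines. The members with the smallest p were ZNF708 for SoF against wt, with a difference of -0.63 (SE 0.32), ZNF480 for Ctrl against wt, with -0.73 (SE 0.24), and ZNF57 for SoF against Ctrl, with 0.95 (SE 0.34), each with an adjusted p of 0.98 or more. An adjusted p above the threshold does not show that the lines responded alike.

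Over all times, the levels of a few members differed between lines. SoF against wt called 15 of 213 tested members, 13 higher and 2 lower, or 7.04% against 8.02% of all genes (4.57% higher and 3.45% lower), and Ctrl against wt called 6, 4 higher and 2 lower, or 2.82% against 4.77% (2.11% and 2.66%). SoF against Ctrl called 4, 3 higher and 1 lower, or 1.88% against 3.61% (2.16% and 1.45%). These fits pool the 4 times of a line. With time as a term they called 50, 26 and 16 members, beside 6134, 3965 and 2814 of all 21122 genes tested. Without wt 1 h replicate 2 the first 2 member counts, of 15 and 6, were 34 and 13 (2605 and 1296 over all genes). The second was 3 without wt 3 h replicate 2 or Ctrl 2 h replicate 1. The third, of 4, was 1 without SoF 3 h replicate 1 and 2 or 3 without each other library of those lines. Across the 213 members, the level difference of SoF from wt correlated with transcript GC (Pearson r of -0.39) and with log10 exon length (0.47). Over all genes these were -0.31 and -0.03, and among the 180 members with a KRAB pattern -0.05 and 0.35. The part of either in the calls was not tested.

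ZNF154, a gene whose promoter is known for methylation in many tumours, was made almost only in Ctrl. Its 8 Ctrl libraries ran from 7.41 through a median of 8.88 to 9.57 CPM, the 8 wt libraries from 0 through 0.163 to 0.279 CPM and the 8 SoF libraries from 0 through 0.0772 to 0.400 CPM. No library of either other line came near the lowest of Ctrl. In bulk libraries, more RNA per cell and more cells making it cannot be told apart. The counts were 764 in Ctrl, 17 in wt and 9 in SoF, which is a CPM ratio of 53.3 to wt (95% interval 33.1 to 92.0) and 86.7 to SoF (45.4 to 190), exact intervals that cover counting error only. The log2 difference of Ctrl from wt was 5.66 (SE 0.30, adjusted p = 5.7e-12), and that of SoF from Ctrl -6.30 (SE 0.33, adjusted p = 8.7e-13).

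None of its nearest tested neighbours was called in the same comparison. The 10 nearest tested genes, which span chr19:57599885-57858941 and include ZNF551, ZNF671, ZNF530, ZNF134 and ZNF776, had Ctrl to wt differences from -0.08 to 0.21 on the log2 scale. ZNF551, whose annotated span contains ZNF154 on the opposite strand, averaged 78.2, 85.4 and 84.2 CPM in wt, SoF and Ctrl. ZNF154 in Ctrl had a log2 change of 0.15 at 3 h (SE 0.32, adjusted p = 0.80).

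**Figure D5:**
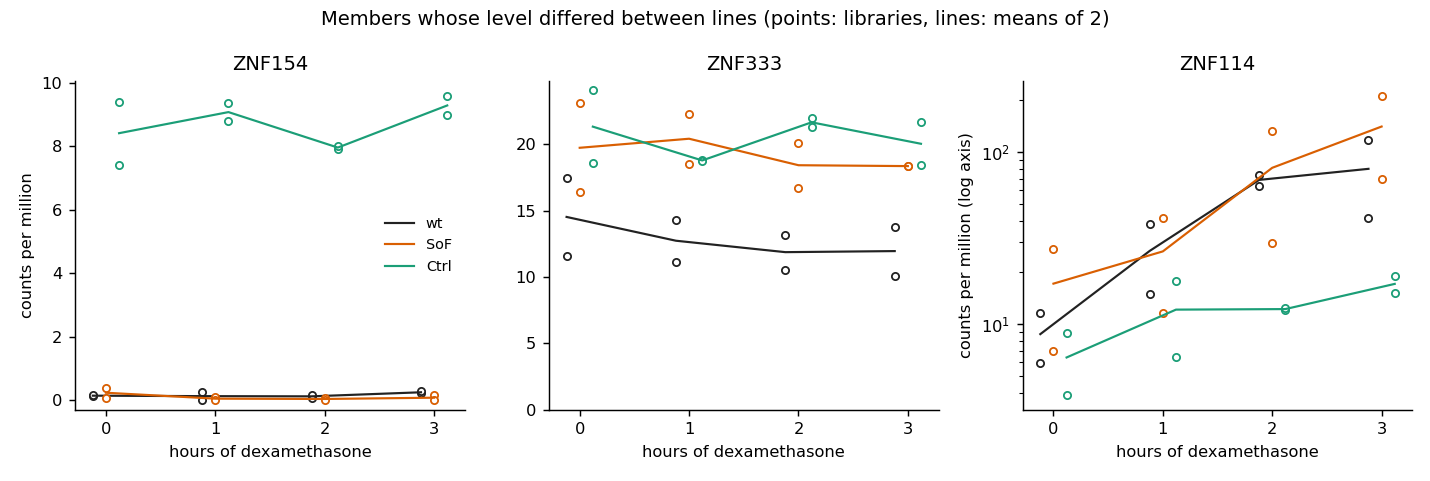
CPM (y axis, log axis for ZNF114) against hours of dexamethasone (x axis) for 3 members whose level differed between lines, with 1 point per library and lines through the means of 2. ZNF154 lies between 7.41 and 9.57 in Ctrl and at or below 0.400 elsewhere, ZNF333 is lowest in wt, and ZNF114 climbs in wt and SoF with wide gaps between replicates.

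ZNF333, a KRAB gene outside the clusters, was lower in wt than in both mutant lines. Its 8 libraries ran from 10.1 to 17.5 CPM in wt, from 16.4 to 23.1 in SoF and from 18.4 to 24.1 in Ctrl, so that wt and Ctrl did not overlap and wt and SoF overlapped only through wt 0 h replicate 2 at 17.5 CPM. The log2 differences from wt were 0.60 (SE 0.11, adjusted p = 0.0017) in SoF and 0.68 (SE 0.11, adjusted p = 0.00060) in Ctrl. ZNF835 went the other way, with medians of 2.37 CPM in wt, 1.40 in SoF and 1.27 in Ctrl and log2 differences of -0.84 (SE 0.22) and -0.91 (SE 0.22).

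Other level differences were small. ZNF121 was 0.35 higher on the log2 scale in Ctrl than in wt and ZNF610 0.50 lower, and ZNF649 was 0.25 lower in SoF than in wt, each with a call that was lost in 6 to 11 of 22 other settings. ZNF587B, ZNF587 and ZNF417 were 0.39, 0.28 and 0.28 higher in SoF than in wt, and ZNF587 and ZNF417 0.22 and 0.23 higher than in Ctrl, calls that were lost in 14 and 17 of 22 other settings. These 3 are close copies or share exon bases with neighbours, and their separate values are uncertain.

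ZNF114 had the largest log2 change of the tested members at 3 h in the mean of the lines, with replicates far apart. In wt it went from 11.6 and 5.91 CPM at 0 h to 118 and 41.5 CPM at 3 h, in SoF from 27.4 and 7 to 212 and 69.6, and in Ctrl from 8.91 and 3.88 to 19.1 and 15.2. Within each line both libraries at 3 h were above both at 0 h, and within SoF replicate 1 was 3 times replicate 2 or more at every time. The mean change was 2.51 on the log2 scale (SE 0.43, adjusted p = 7.9e-05), with 3.18 in wt (SE 0.75, adjusted p = 0.0074), 3.00 in SoF (SE 0.72, adjusted p = 0.0053) and 1.36 in Ctrl (SE 0.79, adjusted p = 0.27).

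The smaller change of ZNF114 in Ctrl was not shown to differ: the difference of Ctrl from wt was -1.82 (SE 1.08, adjusted p = 0.98). Its level over all times was 2.47 higher in SoF than in Ctrl on the log2 scale (SE 0.62, adjusted p = 0.020), a call that was lost without SoF 3 h replicate 1 (1.92, adjusted p = 0.062) and in the 0 h libraries alone. The gene overlaps exons of ZNF114-AS1 on the opposite strand.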

How the data were processed

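The authors trimmed reads with Trim Galore 0.6.6, aligned them to hg38 with STAR 2.7.3a, removed duplicate molecules with UMI-tools 1.1.2 and counted exon reads with featureCounts. The deposited table gives raw counts per Ensembl gene for 24 libraries, and only its title states that they are stranded. Nothing in the sources used here says that the 2 libraries of a group came from separate cultures, so p-values measure the spread between these libraries, which may be technical. The paper states that replicates were biotinylated and pulled down in pairs. Differences between pulldowns may therefore lie between groups, outside that spread. No 2 libraries agreed within sampling noise.

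Positions, exons and proteins were taken from GENCODE v44, in which 61369 of 61533 gene IDs matched. Fingers and the KRAB A box were found by residue patterns in translated canonical transcripts, and the KRAB pattern was widened after it missed known members. Promoter windows are from RefSeq.

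Counts were tested with edgeR 4.0.16 in R 4.3.3 (TMM scaling, quasi-likelihood F test, filterByExpr with a minimum of 10 counts and 15 in total). Time comparisons and response differences came from 1 fit of 12 groups (23651 genes), and line levels from a fit of the 3 lines that ignores time (21122 genes). SE was the log2 change divided by the square root of F. CPM values are counts over the library total multiplied by its TMM factor. Alternatives were DESeq2 1.42.0, RLE scaling, no filter, a replicate block, each line alone, a time term, 0 h libraries alone and each library left out. Leaving out 3 libraries at 0 h was added after seeing the data. The fits were tested on simulated counts.

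The members and lists were chosen with earlier results of these data known. The rule named the 8 rising and 8 falling members with the smallest p at 3 h, the 6 largest changes among those called in all 3 lines, up to 3 members in each direction per level comparison, the smallest p per response comparison, the 5 highest per kb, 10 of known role and the called KRAB partner genes. All other genes were named after their values were seen, including the cluster members, the rest of the 14 called in all lines, ZNF699 and the zinc finger genes under other names.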

Additional observations from a re-analysis of the deposited data

Results flagged for a closer look

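In 3 cases, in ZNF146 and ZNF432 from the members listed for a known role, lines went in opposite directions. Both libraries of 1 line at 3 h lay above both at 0 h while both of another line lay below, and in none was either change called. How often this occurs over all members or all genes is not given here, so the 3 are not a count for the family. The difference was not tested by this criterion itself, and the interaction test called no member. ZNF146 was at 107 and 101 CPM at 3 h in wt against 92.8 and 97.4 at 0 h, and at 121 and 106 in Ctrl against 127 and 138, a gap of 0.35 between their log2 changes. ZNF432 was at 42.0 and 38.4 CPM against 35.0 and 37.9 in wt, at 36.2 and 39.2 against 39.6 and 43.1 in SoF, and at 37.7 and 37.8 against 42.0 and 42.1 in Ctrl. The gap from wt was 0.27 for SoF and 0.30 for Ctrl.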

How the results depend on the processing

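The number of members called moved with the processing mainly where few were called. At 1 h, wt gave 2 without the filter on low counts and 1 by DESeq2, SoF 2 without the filter, and the mean of the lines 2 with RLE scaling, 5 without the filter and 3 by DESeq2. At 2 h, wt gave 5 from its 8 libraries alone and Ctrl 20 by DESeq2. The differences in response of Ctrl against wt and SoF against Ctrl each gave 1 without the filter. Levels of SoF against wt, Ctrl against wt and SoF against Ctrl gave 3, 3 and 2 without the filter, 50, 26 and 16 with a time term, and 0, 1 and 1 in 0 h libraries alone. With the time term, 6134, 3965 and 2814 of all genes were called. Deviations of same-numbered libraries correlated from -0.22 to 0.57 over pairs of groups, so numbers were not taken as pairs, although the 3 pairs of 0 h groups had 0.39 to 0.57. With a replicate block, SoF at 2 h gave 10 and the mean of the lines at 1 h 2, and no other count moved by over 1.5 times. Leaving out the 3 replicate 1 libraries at 0 h gave 0 at 1 h for the mean of the lines, and the 3 replicate 2 libraries 25 at 1 h and 30 at 2 h. Leaving out 1 library gave 0 to 1 in wt at 1 h, 0 to 10 at 2 h and 13 to 16 at 3 h. It gave 0 to 10 and 11 to 33 in SoF and 2 to 21 and 7 to 26 in Ctrl at 2 and 3 h, and 0 to 5, 42 to 68 and 61 to 74 in the mean of the lines at 1, 2 and 3 h. For levels it gave 11 to 34, 3 to 13 and 1 to 3. ZNF146, never called, changed sign at 3 h to 0.079 without the 3 replicate 2 libraries at 0 h, 0.042 without SoF 0 h replicate 2, 0.0087 without SoF 3 h replicate 1 and 0.017 without Ctrl 3 h replicate 2, with a range from -0.070 to 0.042 over single libraries left out. The cause was not tested. Of 758 values of named members under alternatives, 686 kept direction and call, 68 lost the call and 4 changed sign. RLE in place of TMM scaling moved the median of all genes by at most 0.03 on the log2 scale. Members under the filter could not be assessed at this depth.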
